A study of Mus musculus with 6 samples.

Results

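The genes described here are Trp53, which encodes the transcription factor p53, and 9 genes that respond to p53 directly: Cdkn1a, Mdm2, Ccng1, Bax, Ckap2, Trp53inp1, Btg2, Zmat3 and Sesn1. They are 10 of the 24982 gene symbols counted, chosen by symbol. Ckap2, Trp53inp1 and Btg2 had already been noted as higher with YY1 siRNA in these samples when the list was drawn up, so their difference between the groups is given as a description, with no test. The other 7 were listed for their known place in the p53 response, but with earlier results of these data known. RNA-seq counts came from KMWT1, a mouse glioma cell line. There were 3 samples transfected with a pool of siRNAs against YY1 (samples 4, 5 and 6) and 3 transfected with a control siRNA (samples 1, 2 and 3). RNA of all 6 was taken 48 hours after transfection. The study asked what lowering YY1, a zinc finger protein that can activate or repress transcription, does to gene expression in these cells. The labels do not give engineered alleles of the line or its clonality, nor do they say that the samples of a group were separate cultures. The p-values therefore reflect variation among these samples only, and that variation may be technical.

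p53 is kept low in unstressed cells by Mdm2, a ubiquitin ligase that marks it for degradation and is itself encoded by a p53 target gene. DNA damage, oncogene activity or ribosomal stress frees p53, which then binds paired half-sites in DNA and switches on genes for cell cycle arrest, repair, metabolism and cell death. The pathway is disabled in many gliomas, by lesions in the p53 gene itself, by extra copies of the genes for Mdm2 or Mdm4, or by loss of the locus that encodes the Mdm2 inhibitor Arf. In human cells, YY1 has been reported to bind p53 and MDM2 and to promote the ubiquitination of p53, a step that would not show directly in RNA counts.

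The upstream sequences of the members are shown first because p53 acts through such sequence. RefSeq promoter windows (GRCm38.p6, the assembly of mm10) matched 8 of the 10 members, and Trp53inp1 and Zmat3 had none. The 250 bases before each annotated transcript start were searched for the p53 response element, taken as 2 adjoining p53 half-sites of 10 bases with up to 3 mismatches in all. Such a match lay upstream of 6 of the 8 members, against 6.15% of the 27025 genes with a window and 5.61% of the 9576 tested genes among them. A perfect half-site lay upstream of 7 of the 8, against 8.20% of all genes with a window. The members were listed as p53 response genes, so this is a description of them and not a separate finding. The matches are printed here with bases that fit the half-site pattern in capitals and mismatches in lower case.
Cdkn1a: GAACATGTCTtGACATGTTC
Ccng1, farther from the start: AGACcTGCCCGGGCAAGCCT
Ccng1, nearer to the start: AGGacAGTTCGGAaATGCTC
Ckap2: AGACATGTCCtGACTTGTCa
Trp53: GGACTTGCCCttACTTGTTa
Bax: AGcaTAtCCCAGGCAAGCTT
Sesn1: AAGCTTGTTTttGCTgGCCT
The Cdkn1a match and the farther Ccng1 match had 1 mismatch each, the Ckap2 match had 2, and the other 4 had 3 each.

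The whole upstream windows are printed for Ckap2 and Btg2, noted as higher with YY1 siRNA, and for Ccng1 and Cdkn1a, which carry the closest matches. Capitals mark the p53 element matches. The windows are chr8:22185820-22186069 (minus strand) for Ckap2, chr1:134079156-134079405 (minus strand) for Btg2, chr11:40755287-40755536 (minus strand) for Ccng1 and chr17:29090729-29090978 (plus strand) for Cdkn1a.
Ckap2: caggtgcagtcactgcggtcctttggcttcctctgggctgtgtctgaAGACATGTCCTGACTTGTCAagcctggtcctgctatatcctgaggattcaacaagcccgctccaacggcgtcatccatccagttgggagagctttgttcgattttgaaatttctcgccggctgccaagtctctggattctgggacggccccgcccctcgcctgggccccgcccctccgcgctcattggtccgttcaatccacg
Btg2: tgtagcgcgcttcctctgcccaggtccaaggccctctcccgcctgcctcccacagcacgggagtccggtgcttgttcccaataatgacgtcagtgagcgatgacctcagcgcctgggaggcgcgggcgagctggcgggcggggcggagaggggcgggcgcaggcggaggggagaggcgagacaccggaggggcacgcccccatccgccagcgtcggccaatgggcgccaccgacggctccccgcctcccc
Ccng1: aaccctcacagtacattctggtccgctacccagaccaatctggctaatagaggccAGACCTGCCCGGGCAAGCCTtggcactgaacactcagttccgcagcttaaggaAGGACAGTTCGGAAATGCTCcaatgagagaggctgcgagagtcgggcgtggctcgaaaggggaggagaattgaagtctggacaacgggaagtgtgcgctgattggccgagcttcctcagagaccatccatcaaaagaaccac
Cdkn1a: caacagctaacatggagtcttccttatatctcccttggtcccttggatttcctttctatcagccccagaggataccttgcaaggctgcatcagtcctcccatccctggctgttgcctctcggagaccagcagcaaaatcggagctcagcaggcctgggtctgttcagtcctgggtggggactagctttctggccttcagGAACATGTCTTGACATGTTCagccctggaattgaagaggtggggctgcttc
Cdkn1a has 2 annotated starts, 2790 bases apart, and the window shown belongs to the upstream one. The downstream one held no p53 element match. The Sesn1 match lies before the downstream of its 2 starts, which are 76865 bases apart. The Ckap2 match runs from 203 to 184 bases before the start and the Cdkn1a match from 51 to 32. Btg2 held no match in this window, which says only that these letters, with no gap between the half-sites, are not in it. Its window is rich in G and C, at 73.2%, against 58.8% for Ckap2.

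Other motifs were searched on both strands in the same windows. The YY1 core AANATGG occurred upstream of Trp53, from 203 to 197 bases before the start, and of Cdkn1a, from 242 to 236. It occurred upstream of 14.1% of genes with a window. TTTGAA, the cell cycle homology region of many mitotic genes, occurred upstream of Ckap2, from 101 to 96 bases before the start, and of Bax, against 18.3% of genes with a window. The Bax TTTGAA overlaps its p53 element match. The inverted CCAAT box ATTGG occurred upstream of 6 of the 8 members, against 37.5% of genes with a window and 41.3% of the tested genes among them. In Ckap2 it lies from 20 to 16 bases before the start, nearer to the start than the TTTGAA.

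**Figure D1:**
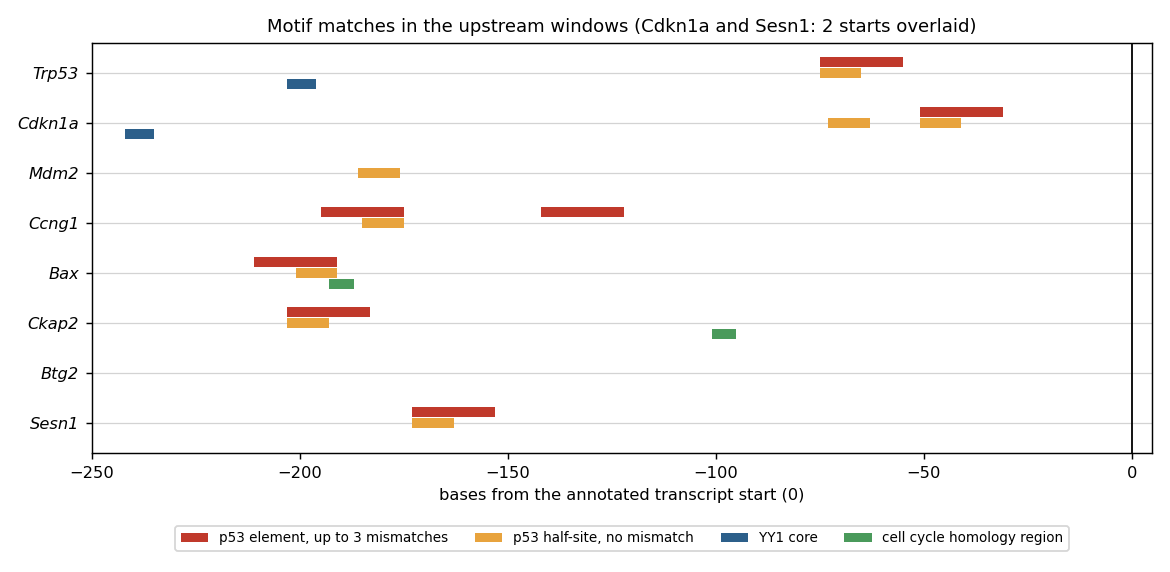
Positions of motif matches in the 250 bases before the annotated transcript starts of the 8 members with a RefSeq window. The x axis gives bases from the start and each row is a gene, with bars for p53 element matches, perfect half-sites, the YY1 core and the cell cycle homology region (the inverted CCAAT box is left out). Ckap2 carries a p53 element match from 203 to 184 bases before the start and the cell cycle homology region from 101 to 96, while the Btg2 row is empty.

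Counts in genes ranged from 15738457 to 20644057 per sample, so that 3 counts equal 0.145 to 0.191 CPM (counts scaled to a common library size after edgeR's TMM normalisation). Members had between 166 counts, for Sesn1 in YY1 siRNA sample 6, and 10723, for Cdkn1a in control siRNA sample 1. All 10 passed the filter on low counts, as did 12148 genes in all. The targeted gene Yy1 was at 81.2, 77.6 and 78.6 CPM in YY1 siRNA samples 4, 5 and 6, against 127, 128 and 127 CPM in control siRNA samples 1, 2 and 3. It fell to 62.3% of the control level (log2 -0.68 ± 0.064 SE, adjusted p 0.00154 by edgeR). No other gene passed. Calls at an adjusted p under 0.05 made up 0.00823% of the genes tested. YY1 siRNA samples 6 and 4 stood apart on the first and second principal components, which held 44.2% and 18.7% of the variance. Sample 6 also held the highest value of 6 of the 10 members, among them Ckap2 and Trp53inp1, picked as higher with YY1 siRNA. How many of all tested genes had their highest value in sample 6 was not counted. The deposited tables of the other 5 samples are named as combined and that of sample 6 is not. What was combined is not stated in the labels, and its part in these values was not tested. Counts that fell in no gene made up 7.87%, 10.7% and 11.3% of the total in YY1 siRNA samples 4, 5 and 6, against 7.99%, 8.64% and 9.03% in control siRNA samples 1, 2 and 3. Of the markers listed for the labelled cell type, 6 of 8 neural stem and glioma genes stood at 10 CPM or more, among them Sox2 and Pdgfra, while Olig2 had 0 counts and Gfap 0 to 2. Of the markers of microglia, endothelium, neurons and oligodendrocytes, 12 of 16 lay under 1 CPM, and all 4 fibroblast and pericyte genes lay at 10 CPM or more or, for Dcn, near it.

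Levels of the members differed widely, and the p53 gene itself was among the lower ones. Per kb of annotated exon, mean levels over the 6 samples ran from 137 ± 13.03 CPM per kb for Cdkn1a to 2.52 ± 0.169 for Sesn1 (SD, n = 6). Cdkn1a, the gene of the cyclin-dependent kinase inhibitor p21, stood above every other member in all 6 samples. Bax followed at 54.0 ± 2.24 CPM per kb, and its 6 values did not overlap those of the next gene. Ccng1 at 41.7 ± 4.01 and Mdm2 at 41.6 ± 2.86 CPM per kb did not differ beyond their spread, with Ccng1 the higher in 3 of 6 samples. Ckap2 stood at 16.2 ± 2.68 CPM per kb, apart from its neighbours on both sides. Trp53inp1 at 5.75 ± 0.974, Btg2 at 4.66 ± 0.799, Trp53 at 3.72 ± 0.526, Zmat3 at 3.00 ± 0.284 and Sesn1 at 2.52 ± 0.169 CPM per kb had ranges that overlapped from each gene to the next, although each stood above the next within all 6 samples. Exon lengths came from GENCODE M21, which may differ from the annotation the authors counted with.

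**Figure D2:**
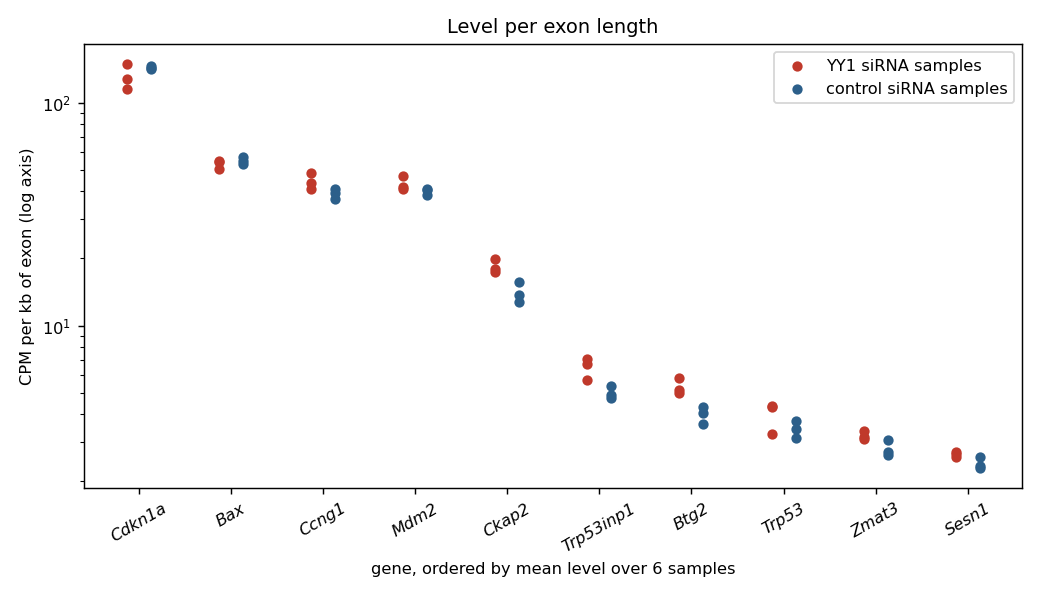
Level of each member in CPM per kb of exon (log axis), with genes ordered by their mean over 6 samples. Red points, on the left of each gene, are the 3 YY1 siRNA samples and blue points the 3 control siRNA samples. Cdkn1a lies at 114 to 149 CPM per kb and Sesn1 at 2.30 to 2.72.

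Trp53 (chromosome 11, 69580359 to 69591873, plus strand, mm10) is the source of p53 itself, and no annotated gene overlaps it. A processed pseudogene named after it, Trp53-ps, lies on chromosome 17 and could share some of its reads. Trp53 was at 13.3, 17.5 and 17.7 CPM in YY1 siRNA samples 4, 5 and 6, against 15.1, 12.7 and 14.0 CPM in control siRNA samples 1, 2 and 3. Samples 5 and 6 lay above all controls while sample 4 lay between controls 2 and 3, so the groups overlapped. The difference was 0.21 on the log2 scale (SE 0.12; adjusted p 0.527 by edgeR), with a 95% interval from 0.963-fold to 1.38-fold. Samples 5 and 6 are also those with the higher shares of counts in no gene, and the part of that in the Trp53 values was not tested. In bulk RNA, a change in the share of cells that express a gene and a change in RNA per cell cannot be told apart.

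Mdm2 (chromosome 10, 117688875 to 117710758, minus strand), the main negative regulator of p53, was at 208, 212 and 239 CPM in YY1 siRNA samples 4, 5 and 6, against 196, 209 and 205 CPM in control siRNA samples 1, 2 and 3. Sample 6 was the highest, and sample 4 lay within the controls. Mdm2 differed by 0.11 on the log2 scale (SE 0.076; adjusted p 0.588 by edgeR), and the 95% interval reached from 0.963-fold to 1.21-fold. Ccng1 (chromosome 11, 40748552 to 40755311, minus strand) encodes cyclin G1, which brings a phosphatase to Mdm2. It was at 153, 144 and 170 CPM in YY1 siRNA samples 4, 5 and 6, against 129, 138 and 144 CPM in control siRNA samples 1, 2 and 3. All YY1 siRNA values lay above all control values, but the gap was narrow, with 144.2 CPM in sample 5 and 143.8 CPM in control siRNA sample 3, and with RLE size factors the groups overlapped. Ccng1 differed by 0.19 on the log2 scale (SE 0.079, edgeR unadjusted p 0.0344, adjusted p 0.424).

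Cdkn1a (chromosome 17, 29090976 to 29100727, plus strand), whose product p21 halts the cell cycle and is the classical readout of p53 activity, was at 528, 456 and 407 CPM in YY1 siRNA samples 4, 5 and 6. In control siRNA samples 1, 2 and 3 it was at 516, 504 and 508 CPM. Sample 4 was thus the highest of the 6 and samples 5 and 6 the lowest, in the reverse order of Trp53 within the YY1 siRNA group. The SD was 13.2% of the mean in YY1 siRNA samples and 1.14% in control siRNA samples. On the log2 scale the difference was -0.14 (SE 0.095; adjusted p 0.592 by edgeR), and its 95% interval reached from 0.788-fold to 1.05-fold. A gene model on the opposite strand, AC167363.2, overlaps Cdkn1a, and reads of both may not have been separated. Bax (chromosome 7, 45461697 to 45466898, minus strand), which opens the mitochondrial outer membrane during apoptosis, was at 85.8, 79.5 and 85.4 CPM in YY1 siRNA samples 4, 5 and 6, against 86.4, 83.7 and 90.3 CPM in control siRNA samples 1, 2 and 3. Its groups overlapped (log2 fold change -0.055, SE 0.069, edgeR adjusted p 0.773, 95% interval 0.868-fold to 1.07-fold). Bax shares its locus with Gm45808, a gene model on the same strand, so its counts are uncertain.

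Zmat3 and Sesn1 had slightly higher values with YY1 siRNA that did not pass the test. Zmat3 (chromosome 3, 32334792 to 32366014, minus strand), a zinc finger RNA-binding protein, was at 35.3, 38.5 and 36.0 CPM in YY1 siRNA samples 4, 5 and 6, against 29.9, 35.1 and 31.0 CPM in control siRNA samples 1, 2 and 3. The groups did not overlap, by 35.34 CPM in sample 4 over 35.14 CPM in control siRNA sample 2, and with library size alone they did. Zmat3 differed by 0.20 on the log2 scale (SE 0.084, edgeR unadjusted p 0.0368, adjusted p 0.429). Sesn1 (chromosome 10, 41809935 to 41908424, plus strand) encodes a sestrin that restrains the growth kinase mTORC1. It was at 10.5, 10.2 and 10.8 CPM in YY1 siRNA samples 4, 5 and 6, against 9.33, 10.2 and 9.15 CPM in control siRNA samples 1, 2 and 3. Again the groups did not overlap, by 10.25 over 10.23 CPM (log2 fold change 0.14, SE 0.10, edgeR adjusted p 0.600). The gene model 9930024M15Rik overlaps Sesn1 on the same strand, so its counts are uncertain.

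Among the 7 members that were not noted as higher, 0 passed edgeR's test over all genes, and DESeq2 and limma-voom called 0 as well. An unadjusted p under 0.05 with a higher value was found for 2 of the 7, Ccng1 and Zmat3, against 5.38% of all genes tested, and for 0 with a lower value, against 5.46%. The groups did not overlap for 3 of the 7, all higher with YY1 siRNA, against 7.36% of genes tested that were higher without overlap and 8.91% that were lower. Their fold changes ranged from -0.14 for Cdkn1a to 0.21 for Trp53 on the log2 scale, with 5 of 7 above 0 and a median of 0.14, beside a median of 0.0007 over all genes tested.

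**Figure D3:**
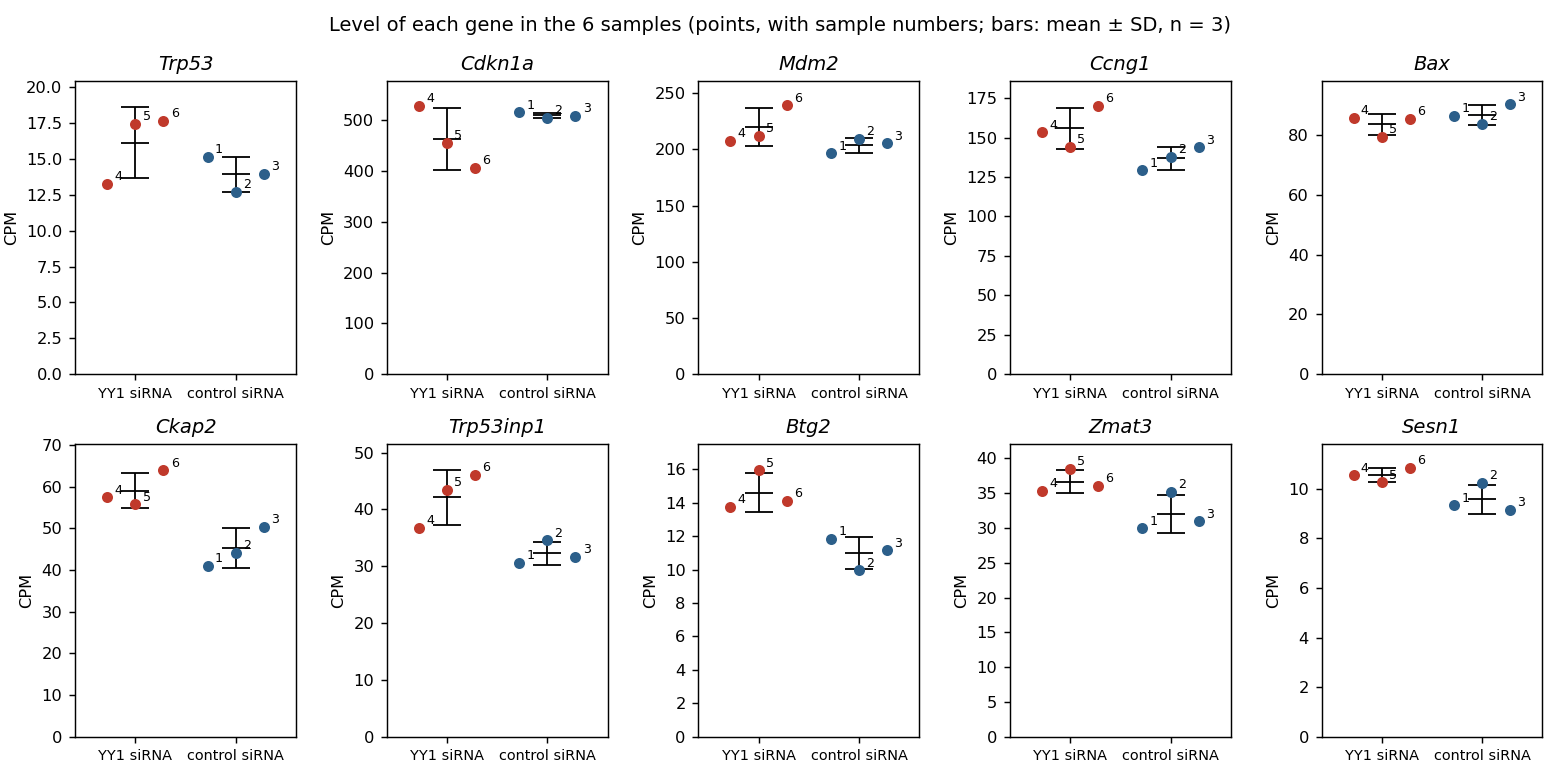
CPM of each member in YY1 siRNA samples 4, 5 and 6 (red, left) and control siRNA samples 1, 2 and 3 (blue, right), with mean ± SD (n = 3) in black. In Ckap2, Trp53inp1 and Btg2 the red points lie above the blue ones, in Cdkn1a the red points spread from 407 to 528 CPM around tight controls, and in Bax the groups overlap.

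Ckap2 (chromosome 8, 22168160 to 22185819, minus strand) encodes a microtubule protein of the mitotic spindle whose RNA is high in dividing cells. It was at 57.5, 55.8 and 63.9 CPM in YY1 siRNA samples 4, 5 and 6, against 41.0, 44.1 and 50.4 CPM in control siRNA samples 1, 2 and 3. All 3 YY1 siRNA samples lay above all 3 controls, with sample 6 the highest and control siRNA sample 3 the nearest below. Ckap2 differed by 0.39 on the log2 scale (SE 0.088). Trp53inp1 (chromosome 4, 11156431 to 11174379, plus strand) encodes a stress-induced nuclear protein that acts with p53 and in autophagy. It was at 36.8, 43.5 and 46.1 CPM in YY1 siRNA samples 4, 5 and 6, against 30.6, 34.6 and 31.7 CPM in control siRNA samples 1, 2 and 3. Sample 4 lay close above control siRNA sample 2, and samples 5 and 6 lay well above the controls. Trp53inp1 differed by 0.38 on the log2 scale (SE 0.093).

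Btg2 (chromosome 1, 134075170 to 134079120, minus strand) encodes an antiproliferative protein that recruits the CCR4-NOT deadenylase, and it is also an immediate early gene. It was at 13.7, 15.9 and 14.1 CPM in YY1 siRNA samples 4, 5 and 6, against 11.8, 9.97 and 11.2 CPM in control siRNA samples 1, 2 and 3. Sample 5 was the highest, where Ckap2 had its lowest YY1 siRNA value, and control siRNA sample 2 the lowest. Btg2 differed by 0.41 on the log2 scale (SE 0.10), from 216 to 300 counts per library in YY1 siRNA samples and 192 to 246 in control siRNA samples. These 3 genes thus differed by about the same amount, 1.30-fold to 1.33-fold, while their order of samples was not shared. No test is given for them, since they were picked on this contrast.

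**Figure D4:**
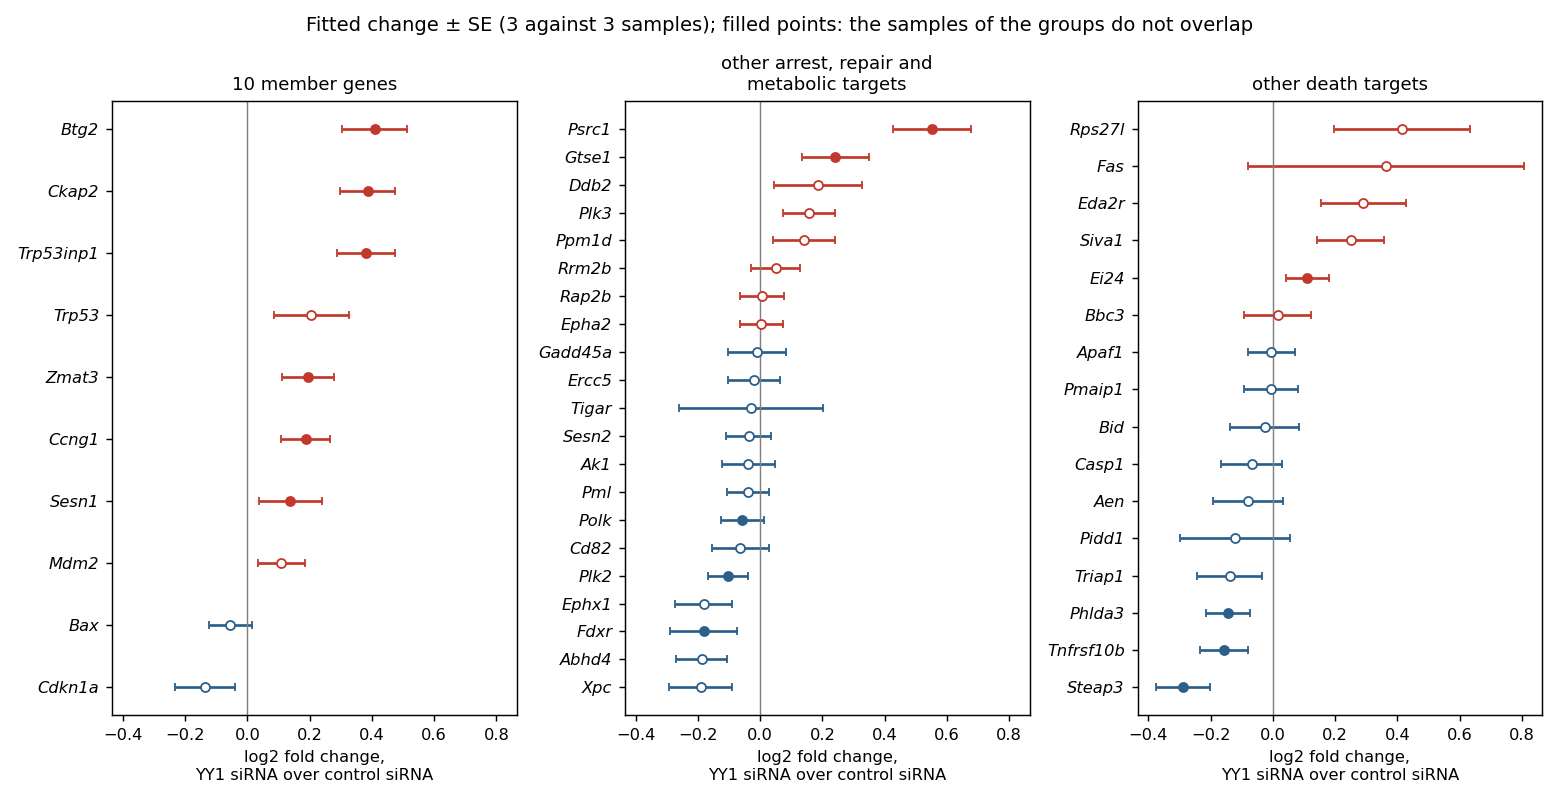
Fitted log2 fold change, YY1 siRNA over control siRNA, with SE as bars, for the 10 members (left), the 21 tested genes of the arrest, repair and metabolic list (middle) and the 16 tested death genes (right). Filled points mark genes whose 3 and 3 samples do not overlap. Psrc1 at 0.55 stands highest among these genes, followed by Rps27l and Btg2 at 0.41, and Steap3 at -0.29 lowest.

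Other p53 targets had fold changes on both sides of 0, and 0 passed the test. Of 22 further targets that act in arrest, repair and metabolism, 21 were tested. Of these, 8 had a fitted change above 0, and the median was -0.030 on the log2 scale. Of 17 further targets that act in cell death, 16 were tested, 6 had a fitted change above 0, and the median was -0.017. EdgeR, DESeq2 and limma-voom each called 0 of the 37. An unadjusted edgeR p under 0.05 was found for 5, with 3 higher and 2 lower, against 5.38% higher and 5.46% lower of all genes tested. The groups did not overlap for 3 genes higher and 6 lower with YY1 siRNA. These are 8.11% and 16.2% of the 37, against 7.36% and 8.91% of all genes tested. Rps27l, a ribosomal protein gene singled out after its values were seen, was at 221, 239 and 378 CPM in YY1 siRNA samples 4, 5 and 6, against 177, 204 and 248 CPM in control siRNA samples 1, 2 and 3 (edgeR adjusted p 0.516), with overlap between the groups. Gdf15, with 0 to 2 counts per library, and Perp, with 0 to 2, were too low to test.

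Psrc1 had the smallest unadjusted p of the 37. It encodes a microtubule-binding protein of the spindle, as Ckap2 does. It was at 9.60, 8.44 and 9.99 CPM in YY1 siRNA samples 4, 5 and 6, against 5.53, 7.11 and 6.46 CPM in control siRNA samples 1, 2 and 3. Psrc1 differed by 0.55 on the log2 scale (SE 0.13; adjusted p 0.160 by edgeR), with no overlap between the groups. Values with ± from here on are means ± SD (n = 3). Gtse1, a microtubule protein of G2 and mitosis that binds p53, was at 20.8 ± 0.954 CPM in YY1 siRNA samples and 17.6 ± 2.56 CPM in control siRNA samples (edgeR adjusted p 0.444). Abhd4, a lipase, was at 36.4 ± 2.11 and 41.5 ± 2.99 CPM in YY1 siRNA and control siRNA samples (edgeR adjusted p 0.431). Ephx1, an epoxide hydrolase, was at 163 ± 21.2 CPM in YY1 siRNA samples and 185 ± 10.1 CPM in control siRNA samples (edgeR adjusted p 0.485).

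Among the death targets, Steap3, a metalloreductase gene, was at 25.4, 22.9 and 22.4 CPM in YY1 siRNA samples 4, 5 and 6, against 30.4, 29.4 and 26.7 CPM in control siRNA samples 1, 2 and 3. The groups did not overlap (log2 fold change -0.29, SE 0.086, edgeR adjusted p 0.267). Siva1, a proapoptotic gene, was at 42.7 ± 6.90 CPM in YY1 siRNA samples and 35.8 ± 2.498 CPM in control siRNA samples (edgeR adjusted p 0.439). Eda2r, a receptor of the tumour necrosis factor receptor family, was at 15.4 ± 2.42 CPM in YY1 siRNA samples and 12.5 ± 1.98 CPM in control siRNA samples (edgeR adjusted p 0.468). Phlda3, an inhibitor of the kinase Akt, was at 75.6 ± 4.63 CPM in YY1 siRNA samples and 83.6 ± 1.07 CPM in control siRNA samples (edgeR adjusted p 0.473).

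Among the genes that act on p53, the tumour suppressor gene Cdkn2a was not detected at this depth. Cdkn2a, which encodes the cyclin-dependent kinase inhibitor p16Ink4a and the Mdm2 inhibitor p19Arf, had 0 counts in all 6 libraries, which allows a level of up to 0.145 to 0.191 CPM per library. The p53 relatives Trp63 and Trp73 also had 0 counts in every library. The other 21 of 24 family members and regulators were tested. EdgeR, DESeq2 and limma-voom called 0 of them. An unadjusted edgeR p under 0.05 was found for 1, Trp53bp1, which was lower, against 5.38% higher and 5.46% lower of all genes tested. Their median log2 fold change was 0.012, with 13 of 21 above 0. Trp53bp1, a DNA double-strand break repair factor, was at 44.7 ± 5.35 CPM in YY1 siRNA samples and 51.7 ± 1.33 CPM in control siRNA samples (edgeR adjusted p 0.423). The checkpoint kinase gene Chek1 was at 7.81 ± 0.950 CPM in YY1 siRNA samples and 6.41 ± 0.608 CPM in control siRNA samples (edgeR adjusted p 0.463). Usp10, a ubiquitin protease that acts on p53, was at 22.7 ± 1.44 CPM in YY1 siRNA samples and 25.2 ± 1.52 CPM in control siRNA samples (edgeR adjusted p 0.524).

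Mdm4, a relative of Mdm2 that blocks p53's activation domain, was at 82.5, 114 and 121 CPM in YY1 siRNA samples 4, 5 and 6, against 84.1, 87.1 and 92.1 CPM in control siRNA samples 1, 2 and 3. Samples 5 and 6 lay above the controls and sample 4 below them (log2 fold change 0.27, SE 0.13, edgeR adjusted p 0.475). Without YY1 siRNA sample 4, the sample in which Mdm4 lay below the controls, Mdm4 passed (edgeR adjusted p 0.0494). In that fit 41 genes passed over the whole table, against 1 with all 6 samples. Mdm4 did not pass when any other single sample was left out. Trp53 also had its lowest YY1 siRNA value in sample 4, there within the range of the controls. The 3 tested nuclear-retained noncoding RNAs, Malat1, Neat1 and Kcnq1ot1, lay as Mdm4 did. Their median log2 level relative to the 6-sample mean was -0.61, 0.35 and 0.48 in YY1 siRNA samples 4, 5 and 6. In control siRNA samples 1, 2 and 3 it was -0.10, -0.19 and 0.15. EdgeR, DESeq2 and limma-voom called 0 of the 3, 0 had an unadjusted edgeR p under 0.05, and Meg3, Miat and Rian of the same list were too low to test. The part of this in the Mdm4 and Trp53 values was not tested. Without sample 4, the groups did not overlap for 6 of the 7 members that were not noted as higher, with 5 higher and Cdkn1a lower. With that sample left out, 17.4% of all tested genes were higher without overlap and 19.2% lower.

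**Figure D5:**
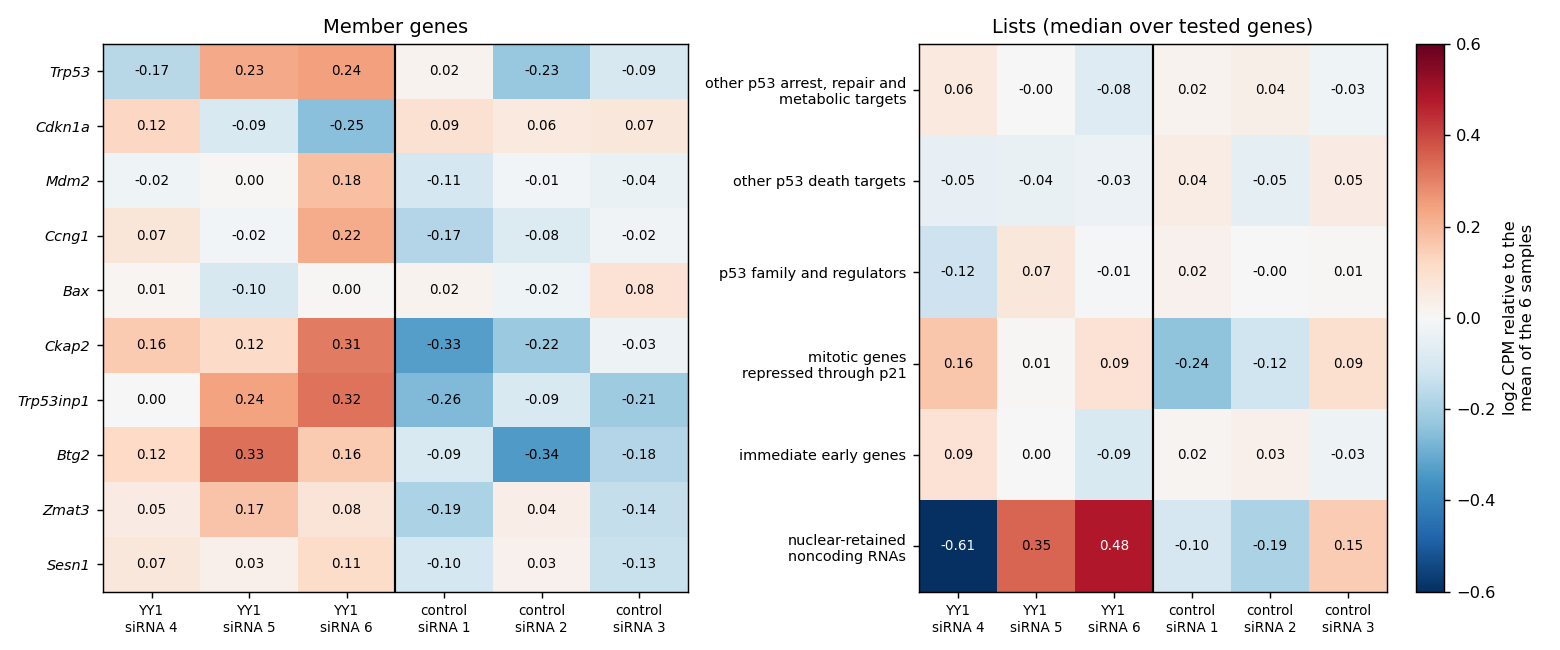
Log2 CPM relative to the mean of the 6 samples, for each member (left) and as a median over the tested genes of 6 lists (right), with YY1 siRNA samples 4, 5 and 6 in the left columns and control siRNA samples 1, 2 and 3 in the right ones. Trp53 is at -0.17, 0.23 and 0.24 in YY1 siRNA samples 4, 5 and 6, and the nuclear-retained RNAs at -0.61, 0.35 and 0.48.

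Because Ckap2 is also a mitotic gene, it was set beside 16 mitotic genes of the kind that p53 represses through p21, such as Cdk1, Birc5 and Ect2. All 16 had a fitted change above 0, as had 6100 of the 12148 genes tested. EdgeR, DESeq2 and limma-voom called 0 of the 16, and 5 had an unadjusted edgeR p under 0.05, all higher, against 5.38% of all genes tested. The median log2 fold change was 0.16, but it was 0.10 without control siRNA sample 1 and 0.26 without control siRNA sample 3. The list's level relative to the 6-sample mean was 0.16, 0.0058 and 0.086 in YY1 siRNA samples 4, 5 and 6, against -0.24, -0.12 and 0.094 in control siRNA samples 1, 2 and 3, so the groups overlapped. Ckap2 relative to this list stood at -0.0073, 0.11 and 0.22 in YY1 siRNA samples 4, 5 and 6, against -0.090, -0.10 and -0.13 in control siRNA samples 1, 2 and 3. The group difference relative to the list was 0.21, given as a description since Ckap2 was noted on this contrast. For Psrc1 the difference relative to the list was 0.38, and for Gtse1 it was 0.072. Within the list, Birc5 was at 58.3 ± 5.31 CPM in YY1 siRNA samples and 47.1 ± 6.09 CPM in control siRNA samples (edgeR adjusted p 0.317). Ect2 was at 93.1 ± 5.58 CPM in YY1 siRNA samples and 77.6 ± 8.66 CPM in control siRNA samples (edgeR adjusted p 0.322). Cdc25c, a phosphatase that activates Cdk1, was at 23.7 ± 1.35 and 19.9 ± 1.53 CPM in YY1 siRNA and control siRNA samples (edgeR adjusted p 0.360). Cdk1 itself was at 108 ± 8.44 and 90.2 ± 14.0 CPM in YY1 siRNA and control siRNA samples (edgeR adjusted p 0.423).

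Btg2 was set beside 19 immediate early genes, which growth factors and stress induce within minutes. EdgeR, DESeq2 and limma-voom called 0 of the 19, and their median log2 fold change was 0.019. An unadjusted edgeR p under 0.05 was found for 2, both higher, against 5.38% higher and 5.46% lower of all genes tested. Egr1, a zinc finger factor, was at 72.0, 79.7 and 70.5 CPM in YY1 siRNA samples 4, 5 and 6, against 63.8, 58.1 and 64.2 CPM in control siRNA samples 1, 2 and 3. As with Btg2, sample 5 was the highest and control siRNA sample 2 the lowest (edgeR adjusted p 0.265). Atf3, a stress factor, was at 22.4 ± 0.783 CPM in YY1 siRNA samples and 19.7 ± 1.03 CPM in control siRNA samples (edgeR adjusted p 0.454). Ier3 was at 1362 ± 183 and 1532 ± 106 CPM in YY1 siRNA and control siRNA samples (edgeR adjusted p 0.553), and Klf4 at 205 ± 14.4 and 222 ± 9.09 CPM (edgeR adjusted p 0.562).

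Genes with the most similar sample profile were found by the root mean square difference of centred log2 CPM over the 6 samples. Nearest to Cdkn1a were Ppme1, Etfdh and Sept9, at differences of 0.017 to 0.020, where the Cdkn1a profile itself had a root mean square of 0.131. Ppme1, a phosphatase methylesterase, was at 238, 206 and 180 CPM in YY1 siRNA samples 4, 5 and 6, against 234, 222 and 226 CPM in control siRNA samples 1, 2 and 3. Near to Ckap2 were 2500004C02Rik and Tmem199, at 0.028 and 0.039 against 0.221 for Ckap2 itself. Tmem199, a transmembrane protein gene, was at 44.6, 45.1 and 50.0 CPM in YY1 siRNA samples 4, 5 and 6, against 33.8, 36.5 and 42.0 CPM in control siRNA samples 1, 2 and 3. Nearest to Trp53inp1 were Ankrd23, Tmed5 and Slc25a28, at 0.048 to 0.052 against 0.218. Nearest to Btg2 were Abhd1, Lncenc1 and A630066F11Rik, at 0.055 to 0.068 against 0.225. No other member was among these genes. The profiles hold the difference between the groups on which Ckap2, Trp53inp1 and Btg2 were picked, so genes near to them share it by choice. The nearest of 12148 tested genes were taken on only 6 values each. How near unrelated genes would lie was not tested, so nearness is a description and not a sign of shared regulation.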

How the data were processed

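RNA was measured in 6 KMWT1 samples, 3 with YY1 siRNA and 3 with control siRNA. The authors deposited one table per sample of whole-number read counts per gene symbol, and the values look unnormalized. The tools listed in the submitters' processing notes are STAR 2.6.1a and edgeR 3.30.0, with the mm10 build. The sources used here do not give the counting program, annotation or strand setting. Antisense partners may therefore share reads. Rows that name no gene, 7.87% to 11.3% of counts assigned to no gene and 1.01% to 1.15% ambiguous, entered neither library sizes nor tests. Samples of a group differed by more than sampling noise in every pair (chi-square over its degrees of freedom, 3.13 to 32.5).

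Testing used edgeR 4.0.16 in R 4.3.3 on the counts (quasi-likelihood, two-sided), with filterByExpr, TMM, robust dispersion and Benjamini-Hochberg adjustment over all 12148 genes kept, at a threshold of 0.05. The steps were tested on simulated data. Recovery was required there only for changes larger than that of any member, so changes of the members' size may be missed. CPM values use TMM library sizes, and log2 profiles a prior count of 2. Alternatives were library size alone or RLE in place of TMM, requiring 1 CPM or more in 3 samples, no filter, DESeq2 1.42.0, limma-voom (limma 3.58.1), no robust estimation, and leaving out each sample. The members and lists were chosen with earlier results of these data known. Named genes are the members, Yy1, up to 4 genes per list with the smallest unadjusted p, genes too low to test, and the 3 nearest profiles of Cdkn1a, Ckap2, Trp53inp1 and Btg2; markers are named by example. One item that this rule names is not reported here. GENCODE M21 gave the gene models (mm10) and RefSeq the upstream sequences (GRCm38.p6).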

Additional observations from a re-analysis of the deposited data

Results flagged for a closer look

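Counts outside any gene enter no comparison. They made up 10.7% of the total in sample 5 and 11.3% in sample 6, both with YY1 siRNA, above the 7.99% to 9.03% of the control siRNA samples. In YY1 siRNA sample 4 it was 7.87%. In the same samples 5 and 6, Trp53 and Mdm4 lay above all controls and Cdkn1a below them, while in sample 4 Trp53 lay within the controls, Mdm4 below and Cdkn1a above them. With sample 4 left out, 17.4% of all tested genes were higher without overlap and 19.2% lower. Lying outside the controls in samples 5 and 6 is thus not particular to these genes. What part of the Trp53, Mdm4 and Cdkn1a values goes with the share of counts outside any gene was not tested.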

How the results depend on the processing

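No paired analysis was possible because the numbers 1 to 3 and 4 to 6 do not recur across the groups. Each of the 10 members kept the direction of its fold change under all 7 other settings and without each of the 6 samples, 130 values in all. These refits draw on the same 6 samples, and Ckap2, Trp53inp1 and Btg2 had been picked as higher. The 130 values are therefore not separate support for a direction. In these refits, 0 of the 7 members that were tested passed. Of the 7 members not noted as higher, the groups did not overlap for 3 in the main comparison, beside 7.36% of all tested genes higher and 8.91% lower. The number was 2 with RLE size factors and with library size alone. It was 3 to 6 without one sample, with 5 when control siRNA sample 2 was left out and 6 when YY1 siRNA sample 4 was. Without YY1 siRNA sample 4 the share over all tested genes also rose, to 17.4% higher and 19.2% lower. For the other settings the share over all genes was not computed, so their numbers have nothing to be read against. Without YY1 siRNA sample 4 the log2 fold change was 0.34 for Trp53 and -0.23 for Cdkn1a (edgeR adjusted p 0.153 and 0.170). Without YY1 siRNA sample 6 some log2 fold changes were smaller in size, at 0.13 for Trp53, -0.057 for Cdkn1a, 0.037 for Mdm2 and 0.11 for Ccng1. Those of Sesn1, Ckap2 and Trp53inp1 were smaller too. Slightly larger ones were found for Bax (-0.077), Zmat3 (0.20) and Btg2 (0.42). Over all members, including the 3 picked as higher, the median log2 fold change was 0.19, and 0.12 without YY1 siRNA sample 6. Among the other p53 targets and regulators, 1 gene passed without a filter on low counts, Psrc1 (edgeR adjusted p 0.0307), and 0 to 1 passed without one sample (Mdm4 without YY1 siRNA sample 4). The number of changed genes over the whole table was 1, and it was 7 with library size alone, 83 without a filter on low counts, 19 with DESeq2 and 1 to 41 without one sample, of which leaving out sample 4 gave 41, sample 6 gave 3 and control sample 3 gave 2. Why the counts differ was not tested. Yy1 passed under all of them (log2 fold change -0.71 to -0.67).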
